A study of Bos taurus with 12 samples.

Results

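Mitochondrial ribosomal protein genes were followed in right ventricle RNA of Angus steers kept at high altitude. They were taken as the rows of the table whose symbol begins with MRPL or MRPS followed by a number. This gave 76 genes of the 24616 in the table. MRPL33 had 2 rows, of which the one with the higher mean level was kept. By the known composition of the ribosome, 25 of the 76 encode proteins of the 28S small subunit and 50 encode proteins of the 39S large subunit. MRPS18A and MRPS30, named as small subunit proteins, are among the 50, since they sit in the large subunit. The last of the 76, MRPS36, belongs to the 2-oxoglutarate dehydrogenase complex in spite of its symbol.

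The study asked what distinguishes the right ventricle of cattle with high altitude disease. All 12 steers were wild type Angus, castrated males that had lived at 2170 m (7120 ft), so every group had long-term natural hypoxia, and they were slaughtered at 13 to 15 months of age. No group from low altitude was part of the design. Right heart catheterization and clinical signs had put them into 3 groups: 6 hypoxia-tolerant steers with low mean pulmonary artery pressure (low PAP), 3 with pulmonary hypertension that were healthy (PH-healthy), and 3 with pulmonary hypertension and right heart failure (PH-failure). Each library came from a different animal.

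Mitochondria keep a small genome that encodes a few proteins of the respiratory chain and ATP synthase, together with the RNAs needed to translate them. Every protein of the ribosome that does this translation is encoded in the nucleus, made in the cytosol and imported. Part of these proteins have a counterpart in bacterial ribosomes, and the rest are specific to mitochondria. Heart muscle is among the tissues with the most mitochondria, and inherited defects of several of these proteins cause cardiomyopathy.

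Levels are RPKM, read numbers divided by exon length and by library depth, so they can be compared between genes. Libraries held 14739237 to 31090198 mapped reads, with PH-failure replicate 1 the shallowest, and 85.6 to 88.2% of these fell in exons. All 76 genes passed the filter of 1 RPKM in at least 3 libraries, as did 11374 genes in all, and each had 67 to 9148 reads per library (median 1111.5). The 13 heart muscle markers summed to 70000 to 91000 RPKM in low PAP, 75900 to 84100 in PH-healthy and 54300 to 83000 in PH-failure, and none of the 13 was at 0. Library names and headers put 3 low-PAP, 1 PH-healthy and 2 PH-failure libraries in 1 series on lane 5, and the other 6 libraries in a second series on lane 4. Since these are whole tissue samples, fewer cells of a type and less RNA per cell cannot be told apart.

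In low PAP, mean levels of the 76 genes ran from 6.35 to 312 RPKM, with a median of 46.6. MRPS6, the counterpart of a bacterial small subunit protein, had the highest mean level, at 312 ± 51.6 RPKM (SD, n = 6). MRPS33, a mitochondrion-specific small subunit protein, came next at 298 ± 38.1 RPKM (SD, n = 6). These neighbours in the order differed by less than their SDs. The lowest were MRPS12, whose bacterial counterpart lies in the decoding centre, at 6.35 ± 0.733 RPKM (SD, n = 6), and mitochondrion-specific MRPL43 at 10.4 ± 1.73 RPKM (SD, n = 6). Both ends of the order thus held small subunit genes. The SD between the 6 low-PAP animals was 4.65 to 42.5% of the mean, with a median of 13.4%. MRPL23, MRPL14, MRPL32 and MRPL33 were the most variable, at 42.5%, 32.6%, 30% and 27.2%.

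Both groups with pulmonary hypertension had less mitochondrial ribosomal protein RNA than low PAP. The levels of all 76 genes summed to 4433, 4611, 5496, 5344, 5038 and 4061 RPKM in low-PAP replicates 1 to 6. They summed to 3587, 3524 and 3515 RPKM in PH-healthy and to 4043, 3572 and 3328 RPKM in PH-failure. Every library with pulmonary hypertension was below every low-PAP library, although PH-failure replicate 1 lay next to low-PAP replicate 6. The mean sum was 4830 ± 556 RPKM (SD, n = 6) in low PAP, 3542 ± 39.2 (SD, n = 3) in PH-healthy and 3648 ± 364 (SD, n = 3) in PH-failure. Leaving out the 5 most abundant genes gave sums of 3135 to 4142 RPKM in low PAP, 2651 to 2761 in PH-healthy and 2461 to 3119 in PH-failure, again without overlap.

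The small subunit genes summed to 1469 to 1973 RPKM in low PAP, 1203 to 1248 in PH-healthy and 1149 to 1427 in PH-failure. Large subunit genes summed to 2355 to 3210, 2011 to 2097 and 1978 to 2380 RPKM in the same groups. For the large subunit, PH-failure replicate 1 at 2380 RPKM was above low-PAP replicate 6 at 2355. The ratio of the large to the small subunit sum was 1.56 to 1.63 in low PAP, 1.61 to 1.71 in PH-healthy and 1.59 to 1.72 in PH-failure, so the groups overlapped in the balance of the subunits.

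**Figure D1:**
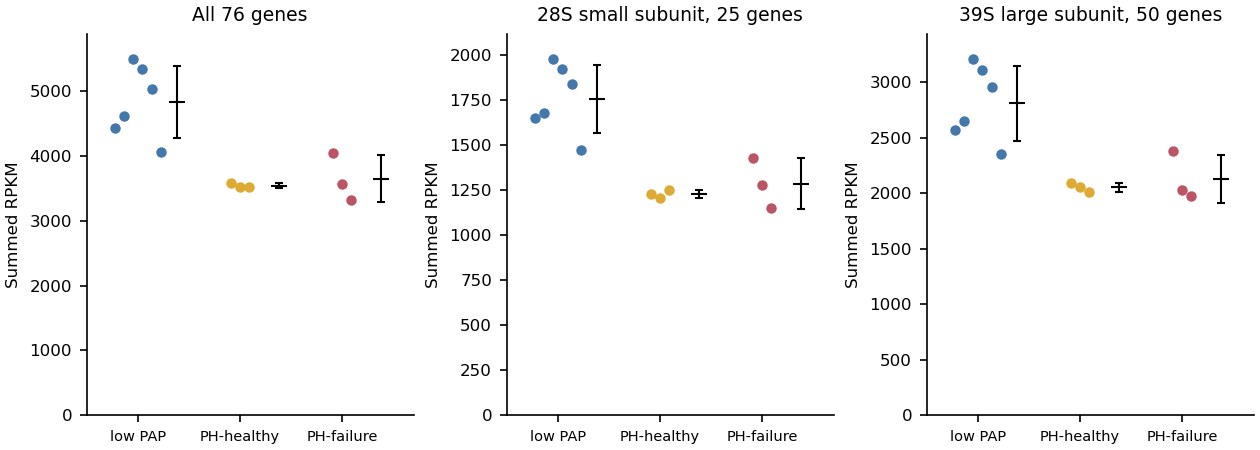
Summed RPKM of the mitochondrial ribosomal protein genes in each library (dots), with the group mean and SD beside them (bars), for all 76 genes, the 25 small subunit genes and the 50 large subunit genes. All 6 libraries with pulmonary hypertension sit below the 6 low-PAP libraries in the left panel, where the low-PAP sums start at 4061 and the others reach at most 4043.

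Compared with low PAP, PH-failure had 35 of the 76 genes lower and 0 higher, by limma with Benjamini-Hochberg adjustment over all 11374 genes at 0.05. Over all tested genes 5.79% were called lower and 28% higher. Called genes were at 53.6 to 80.3% of their low-PAP mean. The median log2 fold change, computed on RPKM + 1, was -0.36 over the 76 genes and 0.21 over all tested genes, a gap of -0.57. Of the 76, 73 had a fold change below 0, and all 76 were below the median of all tested genes. In 23 of the 76, all 3 PH-failure libraries were below all 6 low-PAP libraries, as in 3.74% of all tested genes.

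By subunit, 11 of 25 small and 24 of 50 large subunit genes fell in PH-failure, with median log2 fold changes of -0.37 and -0.36. Among genes with a bacterial counterpart, 6 of 15 in the small and 16 of 29 in the large subunit fell. Among mitochondrion-specific genes it was 5 of 10 and 8 of 21. The 4 medians lay between -0.35 and -0.38. Without PH-failure replicate 3 the count lower was 14, without PH-failure replicate 2 it was 22, and without low-PAP replicate 4 it was 23, while 0 rose in each case. Over all tested genes the counts lower in these 3 fits were 257, 329 and 435, against 658 with all libraries. The gap to the median of all tested genes was -0.48, -0.57 and -0.54.

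Compared with low PAP, PH-healthy had 37 of the 76 genes lower and 0 higher, by limma with Benjamini-Hochberg adjustment over all genes. Over all tested genes 8.15% were called lower and 26.6% higher. Called genes were at 53.2 to 76.5% of their low-PAP mean. The median log2 fold change was -0.41 over the 76 genes and 0.18 over all tested genes, a gap of -0.59, and again all 76 were below the median of all tested genes. The 3 PH-healthy libraries were below all 6 low-PAP libraries in 40 of the 76, as in 9.3% of all tested genes. These are the same 6 low-PAP libraries as in the comparison with PH-failure, so the values of both comparisons are not independent.

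In PH-healthy, 10 of 25 small and 27 of 50 large subunit genes fell, with medians of -0.35 and -0.42. Of genes with a bacterial counterpart, 6 of 15 in the small and 14 of 29 in the large subunit fell, and of mitochondrion-specific genes 4 of 10 and 13 of 21. Without PH-healthy replicate 2 the count lower was 22, and over all tested genes it was 561, against 927 with all libraries. An adipocyte marker score was 2.73 to 2.95 in PH-healthy and 3.16 to 4.89 in low PAP, on the log2 scale. With this score as a term in the fit 17 genes stayed lower and the median was -0.32. Over all tested genes 234 were lower, against 927 without the term, and the gap between the medians was -0.50. Since the score did not overlap between these groups, its part and that of the group cannot be told apart.

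**Figure D2:**
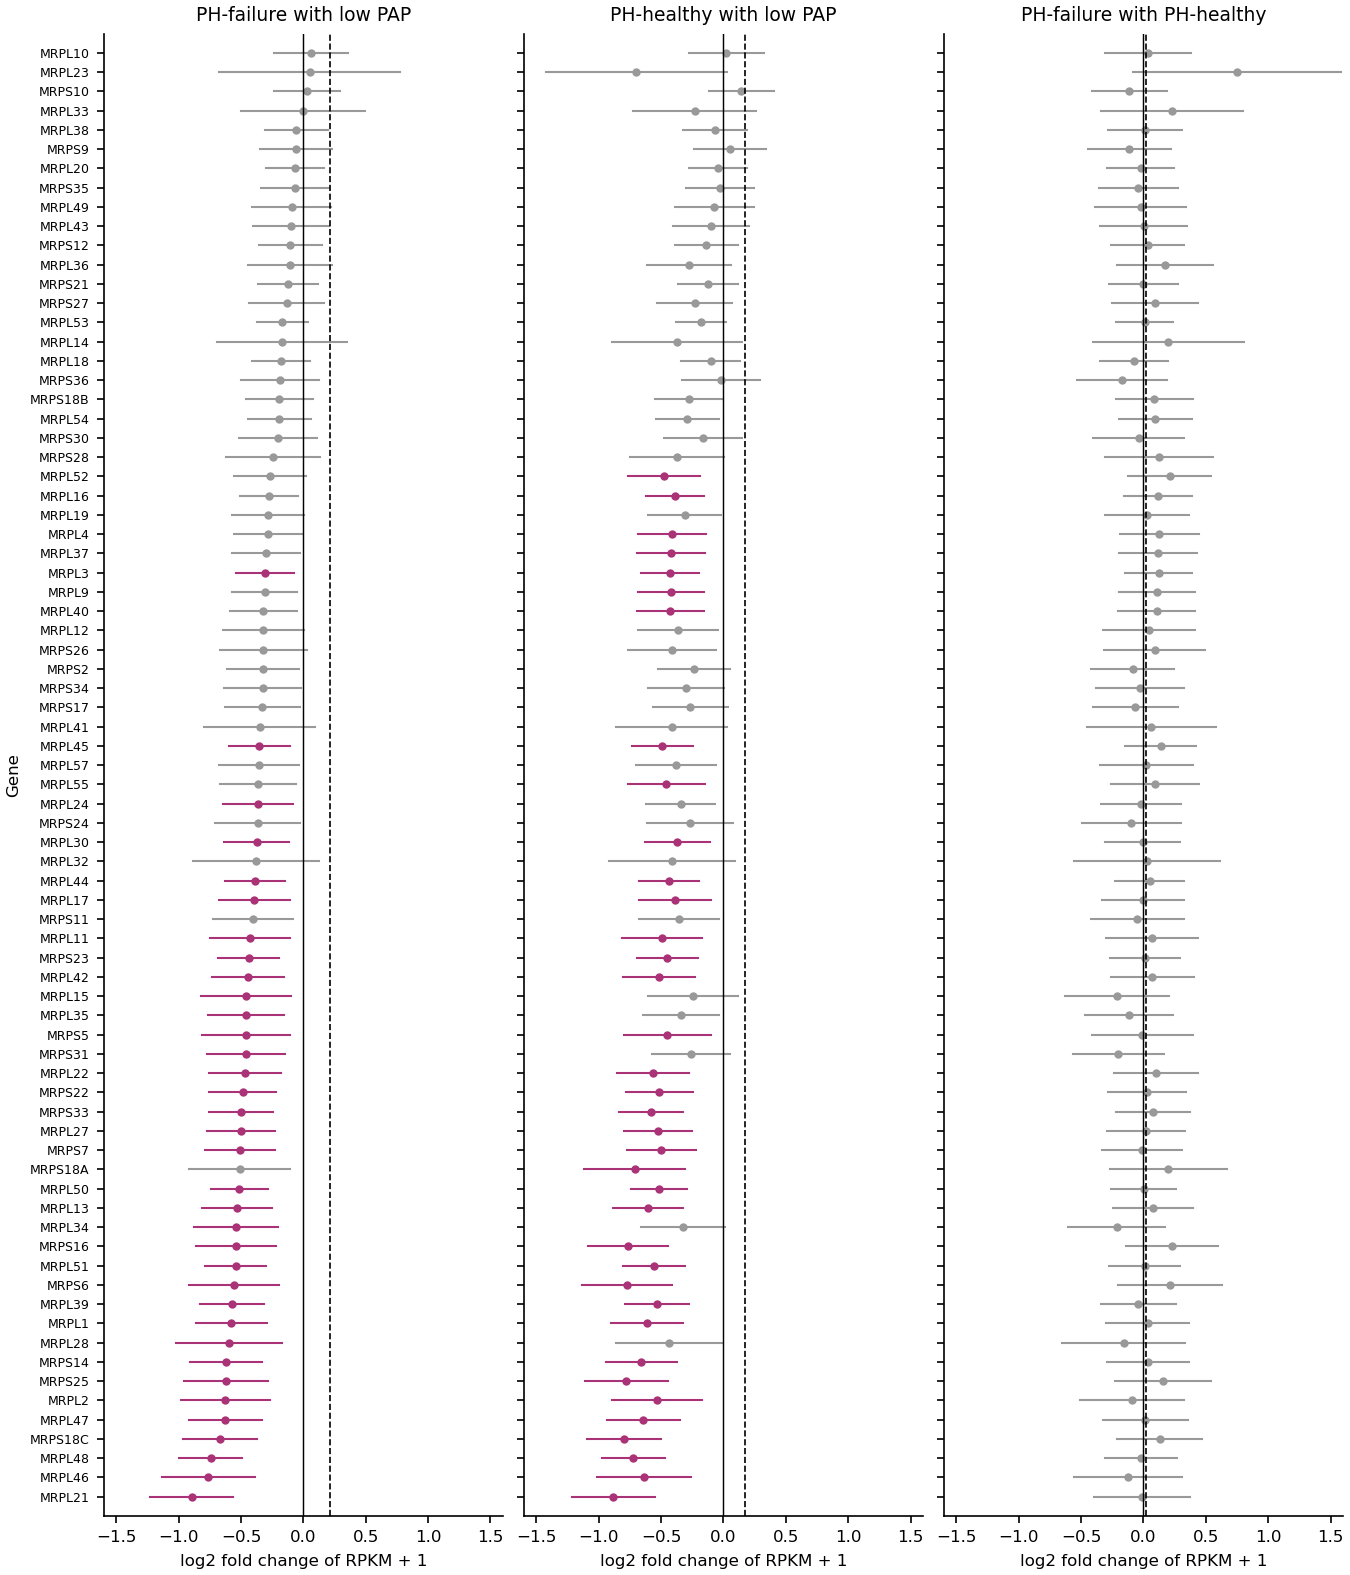
log2 fold change of RPKM + 1 for each of the 76 genes in the 3 comparisons (dots) with its 95% interval from limma (lines), ordered by the fold change in PH-failure. Purple marks an adjusted p under 0.05, the solid line is 0 and the dashed line is the median of all tested genes. All 76 dots lie left of the dashed line in both comparisons with low PAP, and none is purple in the comparison of PH-failure with PH-healthy.

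Between the groups with pulmonary hypertension, limma called 0 of the 76 genes, 0 of the 76 had an unadjusted p under 0.05, and limma-voom on recovered reads also called 0. Of all tested genes 0.00879% were called, 1 gene in all. The median log2 fold change of PH-failure against PH-healthy was 0.02, equal to the 0.02 of all tested genes. MRPL3, a large subunit protein with a bacterial counterpart, and MRPS16, a small subunit one, were the only 2 of the 76 whose libraries did not overlap between these groups, against 5.74% of all tested genes, and both were higher in PH-failure. With 3 libraries a group the 95% intervals were wide: for MRPL21 the interval of the log2 difference ran from -0.40 to 0.37, and for MRPL48 from -0.31 to 0.27.

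Of all 76 genes, MRPL21, a large subunit protein with a bacterial counterpart (ENSBTAG00000004348, chromosome 29, 46913942 to 46923884, 688 bases of exon), fell most. In low PAP it had 89.1 RPKM in the lowest library, a median of 118 and 139 in the highest. PH-healthy libraries had 61.6, 62.3 and 61.1 RPKM, and PH-failure libraries 76.3, 60 and 49.9 RPKM. No library with pulmonary hypertension reached the lowest low-PAP library. The log2 fold change was -0.89 ± 0.15 (SE, limma adjusted p = 0.0027) in PH-failure and -0.88 ± 0.15 (SE, limma adjusted p = 0.00214) in PH-healthy.

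MRPL48, a mitochondrion-specific large subunit protein on chromosome 15, had a lowest, median and highest low-PAP level of 38.5, 51.0 and 56.1 RPKM. The levels were 28.1, 29.9 and 29.4 RPKM in PH-healthy and 28.8, 29.7 and 27.8 RPKM in PH-failure, so the 6 libraries lay within a narrow band below low PAP. Its log2 fold changes of -0.74 ± 0.12 in PH-failure and -0.72 ± 0.12 in PH-healthy had the smallest adjusted p-values among the 76 genes (SE, limma adjusted p = 0.0018 and 0.00159). MRPL46, also mitochondrion-specific, went from 24.9, 31.9 and 36.1 RPKM (lowest, median, highest) in low PAP to 21.1, 18.8 and 19.4 RPKM in PH-healthy and 23.8, 19.8 and 12.3 RPKM in PH-failure. PH-failure replicate 3 was the lowest of all 12 libraries for MRPL46. Its log2 fold change was -0.76 ± 0.17 in PH-failure and -0.64 ± 0.17 in PH-healthy (SE, limma adjusted p = 0.00865 and 0.0159).

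MRPL46 lies 108 bases from MRPS11, the only pair of the 76 genes closer than 10000 bases. The fold changes of MRPS11, a small subunit protein with a bacterial counterpart, were below 0 in both comparisons but did not pass the test. The 76 genes lay on 27 chromosomes, with at most 8 on one of them (chromosome 11).

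MRPL39, MRPL50 and MRPL51 are mitochondrion-specific large subunit proteins, and MRPL47 has a bacterial counterpart. All 4 fell in both groups with no overlap with low PAP. For MRPL39 the low-PAP libraries had a lowest, median and highest level of 82.8, 104 and 124 RPKM, the PH-healthy libraries 72.0, 70.1 and 72.1, and the PH-failure libraries 70.3, 72.8 and 65.2. Its 6 libraries with pulmonary hypertension thus differed by less than the low-PAP libraries did. Relative to low PAP, the means in PH-failure were 66.4% for MRPL39, 69.3% for MRPL50, 68.2% for MRPL51 and 63.6% for MRPL47. In PH-healthy they were 68.3%, 69.3%, 67.4% and 63.2% for the same genes.

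In the small subunit MRPS18C, the counterpart of a bacterial protein, had the lowest fold change in both groups. Its lowest, median and highest low-PAP levels were 79.2, 96.1 and 127 RPKM, against 59.0, 55 and 53.7 RPKM in PH-healthy and 69.1, 60.7 and 54.5 RPKM in PH-failure. Neither group overlapped with low PAP. The log2 fold change was -0.67 ± 0.14 in PH-failure and -0.80 ± 0.14 in PH-healthy (SE, limma adjusted p = 0.00547 and 0.00197).

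MRPS14, with a bacterial counterpart, had 106, 127 and 155.7 RPKM (lowest, median, highest) in low PAP, 82.6, 90.8 and 71.4 RPKM in PH-healthy and 95.7, 82.5 and 73.3 RPKM in PH-failure. These groups did not overlap with low PAP either, and the mean was 64.7% of low PAP in PH-failure and 63.0% in PH-healthy (limma adjusted p = 0.00655 and 0.00417). MRPS33 had 252, 301 and 354 RPKM in low PAP, 195, 193 and 206 RPKM in PH-healthy and 220, 193 and 215 RPKM in PH-failure, with the same separation. For this mitochondrion-specific gene the log2 fold change was -0.50 ± 0.12 in PH-failure and -0.58 ± 0.12 in PH-healthy (SE, limma adjusted p = 0.0104 and 0.00465).

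MRPS6, MRPS16 and MRPS25 fell in both groups. MRPS6 had 234, 326 and 364 RPKM (lowest, median, highest) in low PAP, 160, 168 and 217 in PH-healthy and 248, 209 and 176 in PH-failure. PH-failure replicate 1 was within the low-PAP range of MRPS6, and the log2 fold change was -0.56 ± 0.17 in PH-failure and -0.77 ± 0.17 in PH-healthy (SE, limma adjusted p = 0.0244 and 0.00589). For MRPS16 the low-PAP values were 55.8, 79.7 and 90.9 RPKM, the PH-healthy libraries had 44.7, 44.7 and 43.0 RPKM and the PH-failure libraries 54.7, 45.7 and 55.5 RPKM. Of these, 2 PH-failure libraries came close to the lowest low-PAP library. MRPS25, a mitochondrion-specific protein, was at 64.0% of the low-PAP mean in PH-failure and 56.9% in PH-healthy, and PH-failure replicate 1 at 43.3 RPKM overlapped with low PAP, whose lowest library had 42.4.

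**Figure D3:**
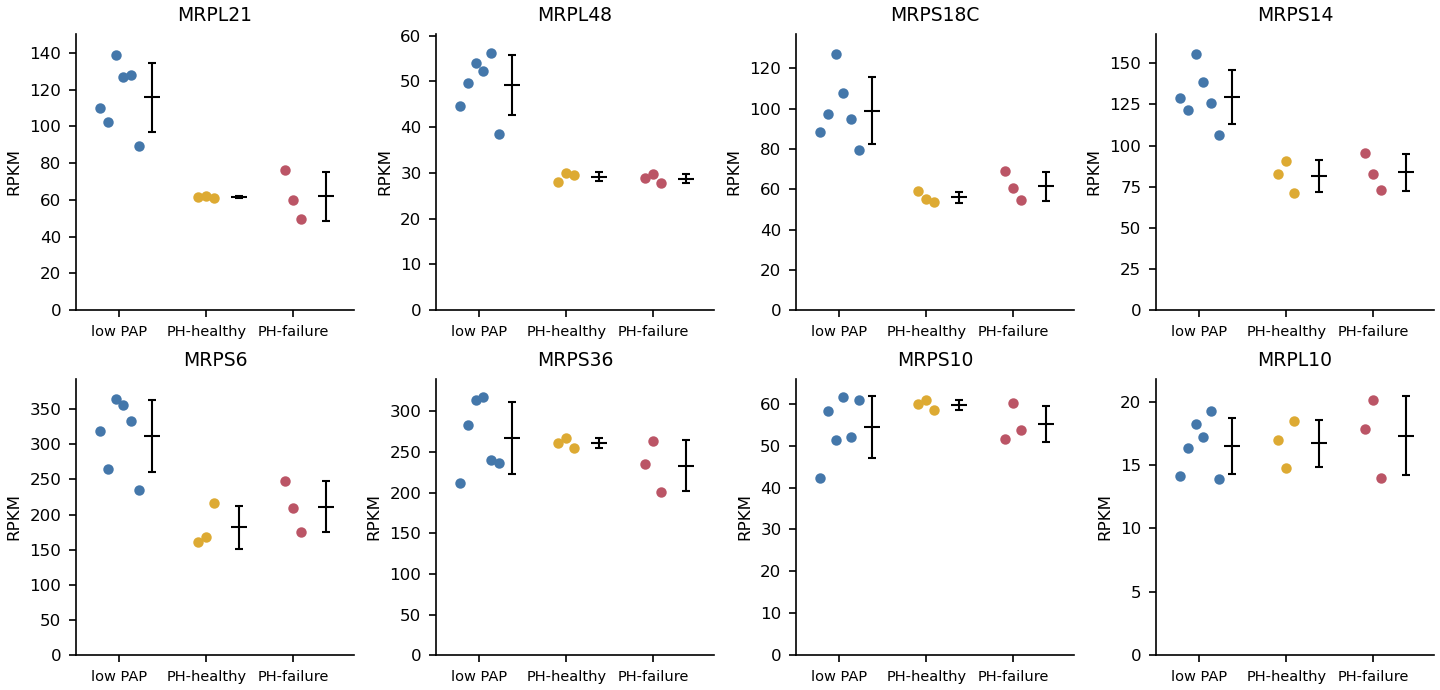
RPKM of 8 genes in each library (dots) with the group mean and SD (bars), on axes that start at 0. MRPL21, MRPL48, MRPS18C and MRPS14 show no overlap between low PAP and the other groups, MRPS6 overlaps with 1 PH-failure library, and MRPS36, MRPS10 and MRPL10 overlap throughout.

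Some genes passed the test in 1 comparison only, and in none of them did PH-failure differ from PH-healthy by limma. MRPS31, a mitochondrion-specific small subunit protein, had 34.6, 42.1 and 48.5 RPKM (lowest, median, highest) in low PAP, 40.9, 35.2 and 29.5 RPKM in PH-healthy and 33.8, 33.8 and 24.1 RPKM in PH-failure. It passed in PH-failure with a log2 fold change of -0.46 ± 0.15 and not in PH-healthy with -0.26 ± 0.15 (SE, limma adjusted p = 0.0301 and 0.178). MRPL34, a large subunit protein with a bacterial counterpart, also passed in PH-failure only, at -0.54 ± 0.15 against -0.33 ± 0.15 in PH-healthy (SE, limma adjusted p = 0.0214 and 0.117). Its library ranges ran the other way from those of MRPS31: the PH-healthy libraries, at most 68.4 RPKM, were all below the lowest low-PAP library at 69.1, while PH-failure replicate 1 at 71.5 was not. MRPL15, also with a bacterial counterpart, was at the threshold in PH-failure with a limma adjusted p of 0.0499, and it passed in 10 of 25 settings, this one included and the replicate block left out. MRPL9, another protein with a bacterial counterpart, passed in PH-healthy at -0.42 ± 0.12 and not in PH-failure at -0.31 ± 0.12 (SE, limma adjusted p = 0.0202 and 0.0622).

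At the other end of the order, MRPS10, MRPS9 and MRPL10 were the 3 genes with a log2 fold change above 0 in PH-healthy, at 0.14, 0.05 and 0.02, and none passed the test (limma adjusted p = 0.369, 0.778 and 0.916). MRPS10, a small subunit protein with a bacterial counterpart, had 42.2, 55.2 and 61.6 RPKM (lowest, median, highest) in low PAP, 60, 60.8 and 58.4 RPKM in PH-healthy and 51.7, 60.1 and 53.8 RPKM in PH-failure. All these libraries lay within the low-PAP range, and the 95% interval of the log2 fold change was -0.23 to 0.29 in PH-failure and -0.12 to 0.40 in PH-healthy. MRPL10, whose bacterial counterpart anchors the stalk of the large subunit, had 13.9, 16.8 and 19.3 RPKM in low PAP, 16.9, 14.8 and 18.5 in PH-healthy and 17.9, 20.1 and 14 in PH-failure. MRPS9, with a bacterial counterpart, was at 97.0% of the low-PAP mean in PH-failure and 104% in PH-healthy. Relative to the median of all tested genes, these 3 were lower in both comparisons.

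MRPS36, which is not a ribosome subunit, had 212, 262 and 318 RPKM (lowest, median, highest) in low PAP, 261, 268 and 255 RPKM in PH-healthy and 235, 263 and 201 RPKM in PH-failure. Its groups overlapped, and neither comparison passed the test (log2 fold change -0.19 ± 0.14 and -0.02 ± 0.14, SE, limma adjusted p = 0.316 and 0.935 for PH-failure and PH-healthy). MRPL23, whose bacterial counterpart lies at the exit of the peptide tunnel, was the most scattered of the 76 genes, with 23.6, 9.02, 23.4, 18.7, 30.1 and 10.6 RPKM in low-PAP replicates 1 to 6. It had 9.49, 9.17 and 13.3 RPKM in PH-healthy and 26.8, 13.0 and 17.7 RPKM in PH-failure, and did not pass the test in any comparison. Its difference between PH-failure and PH-healthy, 0.75 ± 0.39 on the log2 scale, was the largest of the 76 (SE, limma adjusted p = 1.0).

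MRPL33, a small large-subunit protein with a bacterial counterpart, is uncertain. Its 2 rows, on chromosomes 14 and 13, each have 198 bases of exon in 1 stretch, and how reads that match both were counted is not stated in the labels or headers. The row counted here had 131 ± 35.8 RPKM (SD, n = 6) in low PAP, 109 ± 15.7 (SD, n = 3) in PH-healthy and 132 ± 44.5 (SD, n = 3) in PH-failure. The other row had 128 ± 33.2 (SD, n = 6), 105 ± 20.8 (SD, n = 3) and 136 ± 41.5 RPKM (SD, n = 3). Neither row passed the test in any comparison.

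**Figure D4:**
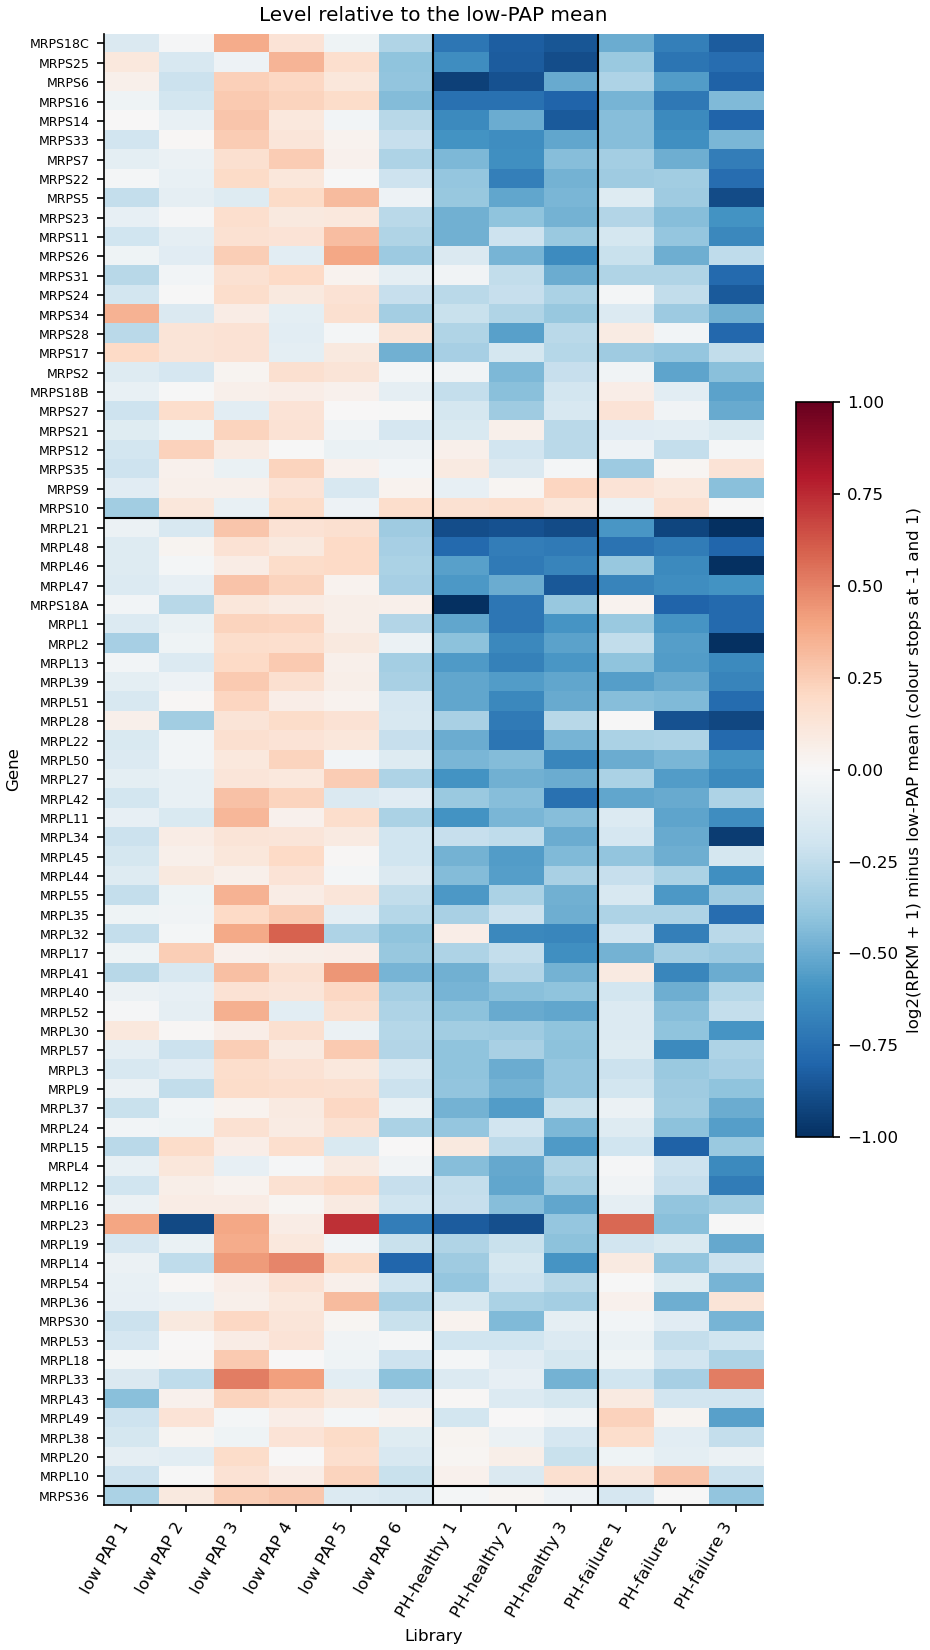
Level of each of the 76 genes in each of the 12 libraries as log2(RPKM + 1) minus the low-PAP mean of that gene, with blue below and red above it. Rows are the small subunit, the large subunit and MRPS36, ordered by fold change, and columns are the libraries. The PH libraries are blue in most rows, low-PAP replicate 6 is pale blue in many of them, and MRPS10, MRPL10 and MRPS36 at the ends of their blocks are pale.

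Libraries within a group were not alike. Low-PAP replicate 6 was below all other low-PAP libraries in 51 of the 76 genes and replicate 1 in 18, whereas replicates 3, 4 and 5 were so in 1, 0 and 1. Among the PH-failure libraries, replicate 1 was below all 6 low-PAP libraries in 26 genes, replicate 2 in 54 and replicate 3 in 58. The PH-healthy libraries were more even, at 49, 50 and 58 genes. Such counts per library were not made over all tested genes, so they cannot be read as particular to the 76. Without low-PAP replicates 2 and 6, 45 genes were lower in PH-failure and 49 in PH-healthy by limma. Over all tested genes 869 and 1092 were then lower, against 658 and 927 with all libraries. Of the low-PAP libraries, these 2 had the all-gene medians nearest to those with pulmonary hypertension (0.10 and 0.09, log2, relative to low PAP). Leaving them out thus favours a larger difference. Within library series, the median log2 fold change of the 76 genes was -0.27 and -0.52 in PH-failure and -0.37 and -0.44 in PH-healthy, for the series on lanes 5 and 4, with 1 or 2 libraries of each group with pulmonary hypertension in a series.

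The 76 genes are short, with a median of 969 bases of exon (198 to 2901) against 1948 in all tested genes. Of the 76, 56 have exons of at most 1287 bases, as do 2842 of all tested genes. Among these short genes, 13.7% of all genes were lower in PH-failure and 19.3% in PH-healthy by limma, and the median log2 fold change was -0.01 and -0.07. The 56 had medians of -0.39 and -0.42. From there to 1948 bases of exon, with 16 of the 76, the medians were 0.14 and 0.10 for all genes and -0.29 and -0.27 for the 16. Across the 76 genes, Spearman's rho between the fold change and the mean level was -0.467 in PH-failure and -0.422 in PH-healthy, and that with exon length 0.188 and 0.292. These correlations are across genes of the same libraries, which are not independent replicates.

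Marker lists of other cell types gave the following values, to be read against the calls over all tested genes. Of these, 28% were higher and 5.79% lower in PH-failure, and 26.6% and 8.15% in PH-healthy. The 10 fibroblast markers summed to 887 to 1140 RPKM in low PAP, 873 to 1510 in PH-healthy and 1210 to 1880 in PH-failure, and 6 of the 10 rose in each comparison with low PAP by limma. Macrophage and monocyte markers summed to 44.0 to 68.9, 62.3 to 91.0 and 62.6 to 175 RPKM, and 6 of 9 rose in PH-failure and 3 of 9 in PH-healthy. Endothelial markers summed to 116 to 200, 181 to 204 and 204 to 268 RPKM, and smooth muscle and pericyte markers to 131 to 227, 190 to 231 and 209 to 370 RPKM. Of these lists, 4 of 10 and 7 of 9 rose in PH-failure and 4 of 10 and 3 of 9 in PH-healthy, so the counts in PH-healthy for macrophages and smooth muscle lay near the share of all genes. T and NK cell markers summed to 22.6 to 31.8 RPKM in low PAP, 16.2 to 25.7 in PH-healthy and 15.2 to 26.0 in PH-failure, with 2 of 9 lower in PH-failure, 1 of 9 lower in PH-healthy and 0 higher. Of the 13 heart muscle markers, 2 were higher and 3 lower in PH-failure, and 3 higher and 2 lower in PH-healthy. Adipocyte markers summed to 279 to 579, 382 to 524 and 471 to 1590 RPKM, and 0 of 6 passed in either comparison with low PAP (limma, 0 in PH-failure and 1 in PH-healthy at an unadjusted p under 0.05). Red blood cell markers summed to 2.92 to 9.3, 1.8 to 6.69 and 3.52 to 70.1 RPKM, and 0 of the 3 tested passed in either comparison. None of the markers found for these lists was at 0 in every library. The adipocyte markers PLIN1, LEP and LIPE and the red blood cell markers HBA1, HBA2 and SLC4A1 had no row under these symbols. The sums and the adipocyte score are without them. The part of these differences in the fall of the mitochondrial ribosomal protein genes was not tested.

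Genes that work with the ribosome gave mixed calls, which stand beside the 5.79% lower and 28% higher of all tested genes in PH-failure and the 8.15% and 26.6% in PH-healthy. Of 6 further ribosome subunits whose symbols lack the MRP prefix, 3 fell in both groups: AURKAIP1, CHCHD1 and ICT1, the last a peptidyl-tRNA hydrolase built into the large subunit. AURKAIP1, a small subunit protein, went from 71.6 ± 6.89 RPKM (SD, n = 6) in low PAP to 44.5 ± 5.87 in PH-healthy and 47.7 ± 8.13 in PH-failure (SD, n = 3 each). DAP3, the GTP-binding protein of the small subunit, had 17.2 ± 1.51 RPKM (SD, n = 6) in low PAP, 20 ± 0.189 in PH-healthy and 19.8 ± 2.37 in PH-failure (SD, n = 3 each), and did not pass the test.

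Of 16 translation factors, 3 rose and 1 fell in each comparison, a smaller share of rises than over all tested genes. Those that rose were the elongation factor GFM1, the translational activator TACO1 and LETM1, a membrane protein reported to bind the ribosome. The release factor MTRF1L fell, at -0.28 ± 0.10 in PH-failure and -0.44 ± 0.10 in PH-healthy (log2, SE, limma adjusted p = 0.0482 and 0.00744). The calls of this list depended on the scaling. Its median log2 fold change was below 0 with each scaling, at -0.10 and -0.08 in the reported fit. With median-ratio scaling 1 of the 16 was higher and 8 lower in PH-failure, and 1 higher and 5 lower in PH-healthy. Over all 11374 tested genes that scaling gave 1530 higher and 1681 lower, and 1824 and 1861. Quantile normalization left 0 higher and 5 lower in PH-failure, and 2 higher and 3 lower in PH-healthy. Of 19 mitochondrial aminoacyl-tRNA synthetases, which charge the tRNAs, none passed in PH-failure (limma, 4 at an unadjusted p under 0.05), and YARS2 rose and NARS2 fell in PH-healthy. With median-ratio scaling 7 of the 19 were lower in each comparison, against 1681 and 1861 of all 11374 tested genes.

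Of 25 genes for ribosome assembly and rRNA modification, 1 rose and 2 fell in PH-failure and 0 rose and 4 fell in PH-healthy. GTPBP10, a GTPase of large subunit maturation, and MALSU1, an assembly factor of the same subunit, fell in both, whereas the pseudouridine synthase family member RPUSD3 rose in PH-failure. Of 20 genes for mitochondrial transcription and RNA handling, 0 rose and 4 fell in PH-failure, and 1 rose and 4 fell in PH-healthy. These included TFB2M, a mitochondrial transcription factor, at -0.46 ± 0.12 and -0.36 ± 0.12, and TRMT10C and HSD17B10, which are subunits of mitochondrial RNase P (log2, SE; limma adjusted p for TFB2M 0.0147 in PH-failure and 0.0364 in PH-healthy). With median-ratio scaling, 0 genes of either list were higher in either comparison. That scaling called 1530 of all 11374 tested genes higher in PH-failure and 1824 in PH-healthy.

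Of 12 regulators of nuclear genes for mitochondria, 4 rose in PH-failure (ESRRG, GABPA, GABPB1 and NRF1) and 3 in PH-healthy (ESRRG, GABPA and CLUH), and 0 fell, so the share that rose was near that of all tested genes. ESRRG, an estrogen-related receptor, rose from 1.99 ± 0.765 RPKM (SD, n = 6) in low PAP to 5.52 ± 1.42 in PH-healthy and 4.56 ± 0.858 in PH-failure (SD, n = 3 each; limma adjusted p = 0.00244 and 0.00791). The list's median log2 fold change of 0.28 in PH-failure and 0.20 in PH-healthy was close to the 0.21 and 0.18 of all tested genes. With median-ratio scaling 1 of the 12 was higher in each comparison and 1 was lower in PH-failure. Of all 11374 tested genes, 1530 were then higher and 1681 lower in PH-failure, and 1824 and 1861 in PH-healthy.

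The nuclear subunits of the respiratory chain and ATP synthase, which assemble with the products of mitochondrial translation, fell as well, 51 of 84 in PH-failure and 47 of 84 in PH-healthy, with 0 higher. Over all tested genes 5.79% and 8.15% were lower. The median log2 fold changes of the 84 were -0.54 and -0.52. Quantile normalization gave 36 lower in PH-failure, and 16 lower and 2 higher in PH-healthy, whereas median-ratio scaling gave 67 and 60 lower and 0 higher. Of all 11374 tested genes, quantile normalization called 1418 and 1622 lower, and median-ratio scaling 1681 and 1861. The 16 in PH-healthy were thus not far above the share of all genes. The 76 ribosomal protein genes summed to 7.54 to 8.14% of the sum of these subunits in low PAP, 7.91 to 8.55% in PH-healthy and 7.63 to 9.85% in PH-failure. Of the 13 protein-coding genes of the mitochondrial genome, 3 fell in PH-failure and 4 in PH-healthy, with medians of -0.18 and -0.15. Quantile normalization, which gives each rank the same value in every library, turned these medians to 0.08 and 0.02. Median-ratio scaling gave -0.44 and -0.37, and scaling on reads outside the mitochondrial genome -0.28 and -0.24. With each of these 2 scalings, 5 of the 13 were lower in each comparison. Of all 11374 tested genes, the first called 1681 and 1861 lower and the second 1032 and 1312. Genes of the mitochondrial genome took 22.5 to 29.9% of exon reads in low PAP, 18.3 to 20.7% in PH-healthy and 17.8 to 20.3% in PH-failure. With RPKM recomputed on the reads of all other genes, 50 of the 76 ribosomal protein genes were lower in PH-failure and 47 in PH-healthy. Calls rose over all 11374 tested genes too, with 1032 and 1312 lower against 658 and 927 in the reported fit.

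Of 79 cytosolic ribosomal protein genes, whose products build the ribosome of the cytosol, 2 fell in PH-failure and 61 in PH-healthy. Over all tested genes 5.79% and 8.15% fell. The 79 had median log2 fold changes of -0.21 and -0.58. Between PH-failure and PH-healthy their median was 0.36, against 0.02 for the 76 mitochondrial ribosomal protein genes, but limma called 0 of the 79 in that comparison (7 at an unadjusted p under 0.05). Quantile normalization gave 1 higher and 1 lower of the 79 in PH-failure and 14 lower in PH-healthy. Of all 11374 tested genes it called 1418 and 1622 lower. Median-ratio scaling gave 13 and 71 of the 79 lower and 0 higher, against 1681 and 1861 of all tested genes lower. The 14 in PH-healthy and the 13 in PH-failure were thus near the share of all genes. The mitochondrial sum was 7.27 to 8.74% of the cytosolic sum in low PAP, 8.07 to 9.41% in PH-healthy and 5.00 to 8.76% in PH-failure, where replicate 3 was the low value.

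**Figure D5:**
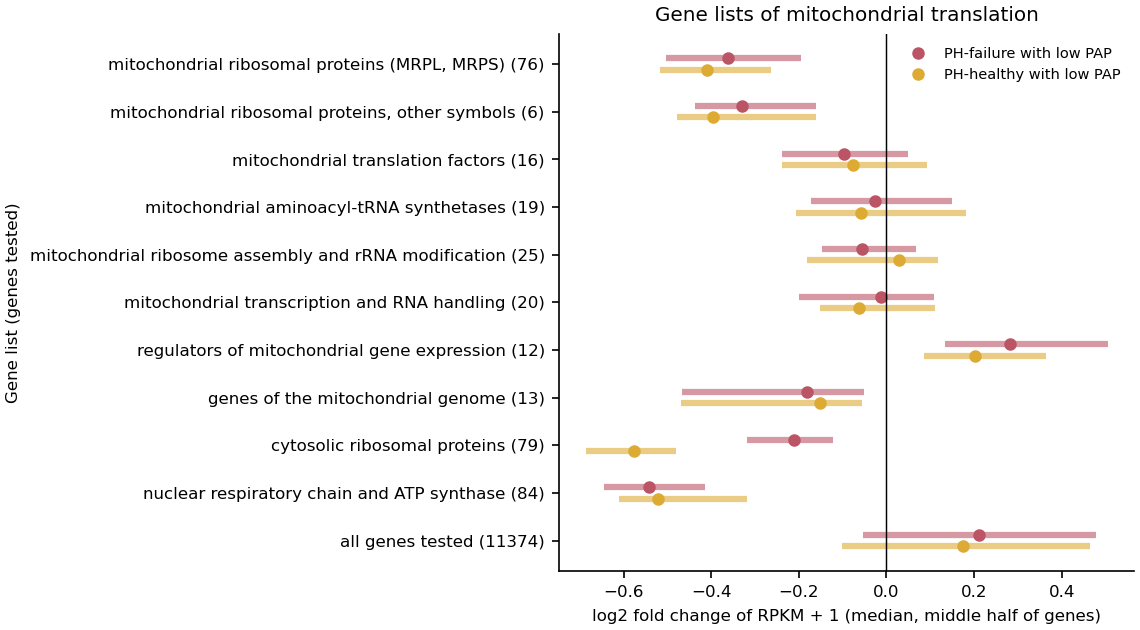
Median log2 fold change of RPKM + 1 (dots) and range from the 25th to the 75th percentile of the genes (bars) in lists of mitochondrial translation, with the number of genes tested, for PH-failure and PH-healthy against the same low-PAP libraries. The 76 mitochondrial ribosomal protein genes have medians of -0.36 and -0.41, the lists of factors, synthetases, assembly and RNA handling lie near 0, and all tested genes lie at 0.21 and 0.18.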

How the data were processed

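Right ventricle RNA of 12 steers was sequenced. The values the authors deposited are RPKM, per the file headers, for 24616 genes with Ensembl identifiers, symbols and positions. Positions are those of the table. For aligner, counter, strand and genome build: not given in the sources used here. Reads were recovered from the RPKM, since the values of a gene are whole multiples of 1 read's worth, and all 11374 tested genes came out whole within 0.05 reads. Depth limits counting error only.

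A filter of 1 RPKM in 3 or more libraries was applied. log2(RPKM + 1) was tested with limma 3.58.1 (trend and robust moderation, all 3 groups in 1 fit, R 4.3.3), with Benjamini-Hochberg adjustment over all genes at 0.05. Fold changes on this scale understate the change of low genes. The fit and the read recovery were tested on simulated data. The members, gene lists, subunit groups and naming rule were chosen with earlier results of these data known. The rule named, per comparison, the 8 called genes of smallest p in each direction and the 4 largest fold changes each way, and over all comparisons the 6 genes of highest and of lowest mean level. From each further list it named at most 2 called genes per direction and comparison. MRPL3, MRPL32, MRPS11, MRPS18A, MRPS30, DAP3 and the other called regulators, translation factors and subunits were named after their values were seen. Alternatives covered scaling, pseudocount, filter, test, library series, an adipocyte score, the replicate block and leaving out libraries. Promoter sequences were not used here.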

Additional observations from a re-analysis of the deposited data

How the results depend on the processing

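In each of the settings with a test, 0 of the 76 genes were higher in either comparison with low PAP, and 0 were called between PH-failure and PH-healthy. Within library series only fold changes were taken, without a test. Median-ratio scaling raised the count lower to 57 in PH-failure and 58 in PH-healthy. Quantile normalization gave 45 and 42. It moved the all-gene median (log2) from 0.21 and 0.18 to -0.03 and -0.04 and that of the 76 genes to -0.45 and -0.44, and it split all calls into 1133 higher and 1418 lower in PH-failure and 1424 and 1622 in PH-healthy, against 3190 and 658, and 3024 and 927. Median-ratio scaling split them into 1530 and 1681, and 1824 and 1861. The adipocyte score as a term gave 17 lower in PH-healthy and 36 in PH-failure, beside 234 and 631 of all tested genes. The 17 were all called in the reported fit, but of the 36 only 27 were. Leaving out 1 library in turn gave 14 to 43 lower in PH-failure and 22 to 46 in PH-healthy. Over all tested genes it gave 257 to 929 and 382 to 1092 lower. A replicate block on the label numbers gave 10 lower in PH-failure, 9 of them called in the reported fit, and 15 in PH-healthy. Over all tested genes it gave 157 and 320 lower. Same-numbered deviations (r of -0.0834 to 0.193 in PH-failure, -0.257 to -0.123 in PH-healthy) and separate animals do not make these numbers pairs. Over the 25 tested settings without the block, the reported fit included, 11 of the 35 genes lower in PH-failure and 15 of the 37 in PH-healthy were called in each. How many of all tested genes were called in each was not counted. The cause of the shifts between settings was not tested. The pseudocount of 0.1, limma-voom on recovered reads, the filter of 5 RPKM and the library series as a term gave 31 to 36 lower in PH-failure and 35 to 37 in PH-healthy. Of the genes tested in these settings, 570 to 668 and 808 to 928 were lower. Fits of only the 2 groups compared gave 27 and 45 lower, beside 471 and 1105 of all tested genes. Without a filter on low values 28 and 35 were lower, beside 555 and 815 of the genes then tested. Groups of 3 limit precision: for the members named, the SE of a log2 fold change against low PAP was 0.105 to 0.336.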
